A study of Mus musculus with 14 samples.

Results

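The cytosolic ribosomal proteins were examined in 14 single cells of adult mouse bone. They were taken as the rows whose gene symbol begins with Rpl, Rps or Rplp and a number, or is Rpsa, leaving out the S6 kinase genes named Rps6k. Of 9558 rows in the table, 90 met this rule. Of these, 76 encode the subunits of the standard ribosome (45 of the large and 31 of the small subunit) and are called core genes here. The other 14 are 7 processed copies of core genes, 6 diverged paralogues and Rps19bp1, whose product binds the S19 protein and is not a ribosomal subunit. The 7 copies include Rps4l, less like its parent than the rest. Rpl13 was not analysed here.

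The donors of all cells were adult C57BL/6 mice of the genotype Prrx1-CreERT;Tomato. Prrx1 is a homeobox gene of limb mesenchyme, and its promoter drives a Cre that works once tamoxifen is given. Recombined cells and their progeny then carry the red reporter Tomato. Per the labels' protocols, the mice received 2 mg of tamoxifen per 30 g of body weight on each of 3 days, and collagenase digests of flushed limb bones were sorted for Tomato before single cells were picked by hand. The cells form 1 group with no animal named, so they count as 1 sample, no test was possible, and the SD over cells describes these cells only.

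A ribosome is built from ribosomal RNA and one copy of most ribosomal proteins, with the acidic proteins P1 and P2 as the repeated exception. The mRNAs of these proteins are short and abundant. In mammals most of them begin with a cytosine and a run of pyrimidines, the terminal oligopyrimidine (TOP) tract, through which mTOR signalling and the binding protein Larp1 regulate their translation together. In the skeleton these genes are known from mouse mutants such as Tail-short, which lacks a copy of Rpl38 and has vertebral patterning defects. In human, mutations of single members cause Diamond-Blackfan anaemia.

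Start sites are shown first because the core genes share letters there that the choice of members did not use. RefSeq (GRCm38.p6) gave a promoter for 56 of the 76 core genes. The letters CTTTCC, a frequent form of the TOP tract, occurred on the sense strand within 50 bases of a start site in 18 of these 56 genes (32.1%), against 5.43% of the 27025 genes with a promoter. On either strand the shares were 33.9% and 10.3%. The letters CCGGAA, the core of ETS family sites, occurred on either strand of the same window in 33.9% of core genes and 9.24% of all genes, and both motifs can share letters, since CCGGAA reads TTCCGG on the opposite strand. TATAAA, between 40 and 16 bases before the start, occurred in 0 of the 56 core genes and in 2.41% of all genes. The windows below run from 15 bases before to 15 bases after the annotated start, 5′ to 3′ on the coding strand, with CTTTCC in capitals. Only 9 of the 56 core genes hold the letters in this narrow window, and the first 5 shown were picked from those 9, so they are examples and not typical start sites. They include the core gene with the highest mean (Rps27), the gene of the Tail-short mutant (Rpl38) and a gene that was highest in cell 6 and lowest in cell 8 (Rpl15). The last, Rpl7a, lay deepest below the other cells in cell 6 and lacks the letters, as do the windows of Rps19. The window of Rpl7a still holds a run of pyrimidines, so the absence of CTTTCC is not the absence of a TOP tract.
Rps27, chr3:90213634-90213663, minus strand: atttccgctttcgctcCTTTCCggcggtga
Rpl38, chr11:114668565-114668594, plus strand: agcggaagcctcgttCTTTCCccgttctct
Rpl15, chr14:18270972-18271001, minus strand: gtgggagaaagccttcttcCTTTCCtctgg
Rps10, chr17:27635230-27635259, minus strand: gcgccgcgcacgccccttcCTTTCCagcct
Rpl35, chr2:39005117-39005146, minus strand: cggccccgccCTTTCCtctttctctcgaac
Rpl7a, chr2:26910792-26910821, plus strand: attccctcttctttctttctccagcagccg

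A further shared feature was the hosting of small nucleolar RNAs, which guide modification of ribosomal RNA and are cut out of introns. In GENCODE M21, 29 of the 76 core genes (38.2%) contained an annotated snoRNA gene on the same strand, against 147 of 9281 other protein-coding rows (1.58%). The core genes lay on 19 chromosomes. Their principal transcripts had a median length of 830 bases, against 2780 for the other protein-coding rows.

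Core genes were detected everywhere. A row was counted as detected in a cell at a value of 1 or more on the deposited scale, log2(quantile-normalized FPKM + 1), which corresponds to an FPKM of 1. FPKM is a fragment count scaled by transcript length and by mapped fragments. Of the 90 rows, 86 passed this in every one of the 14 cells, as did 15.8% of all rows, and 87 passed it in 7 or more cells, as did 51.7% of all rows. All 76 core genes were among the 86, and the lowest core value in any cell was 2.84, for Rpl8 in cell 8. All 76 also had a mean in the top 5% of rows (background 4.99%). The 4 rows not detected everywhere were the paralogues Rpl3l and Rpl39l, the copy Rps4l and Rps19bp1. Back-transformed, the core genes made up 4.87% of the summed FPKM in cell 6, 6.75% in cell 8, and 9.31% to 17.7% in the other 12 cells, with a median of 11.6% over all cells. Each cell has nearly the same total after normalization, so these shares do not measure RNA content.

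**Figure D1:**
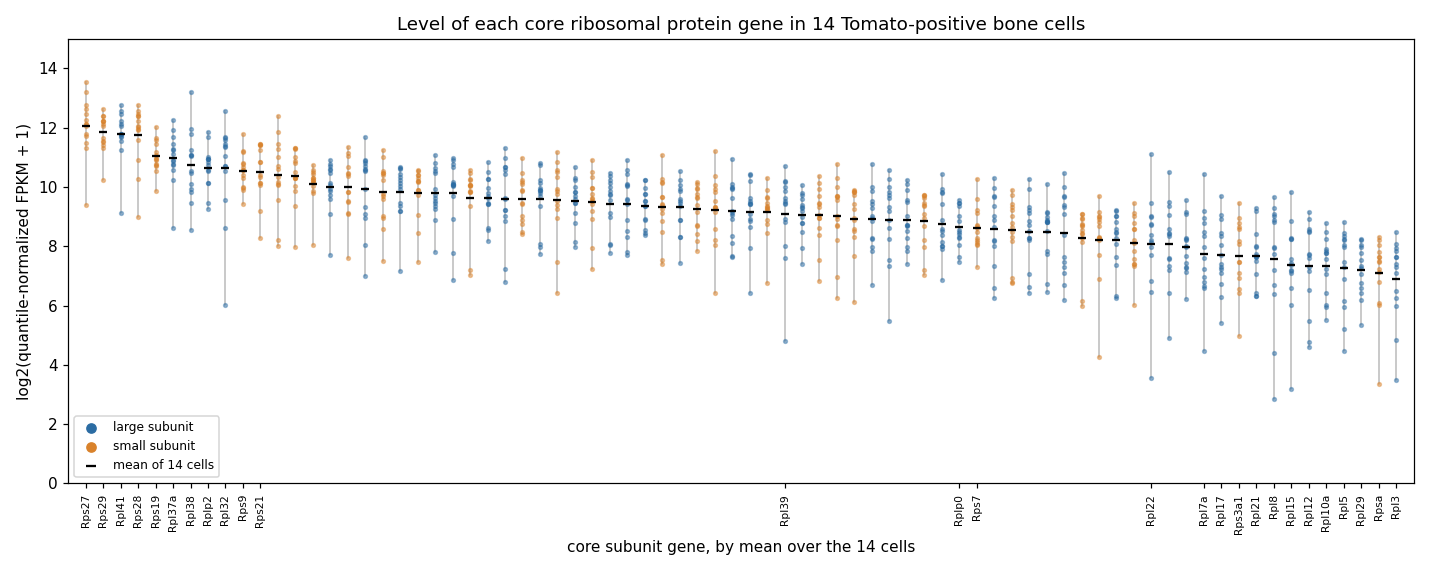
Level of each of the 76 core genes, log2(quantile-normalized FPKM + 1), in the 14 cells. Genes run from the highest to the lowest mean, with some of those in the text labelled. Points are cells, coloured by subunit, dashes are means and grey lines run from the lowest to the highest cell. Means fall from 12.07 for Rps27 to 6.89 for Rpl3, and neighbouring genes overlap widely.

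The small subunit genes stood above the large subunit genes in every cell. The large subunit mean had a median over cells of 8.99 (range 7.53 to 9.80) and the small subunit mean one of 9.63 (8.0 to 10.33). Large minus small was -0.60 in the median, from -0.93 in cell 1 to -0.42 in cell 4, and negative in 14 of 14 cells. With the division by length undone it was -0.61. That value includes the small subunit genes Rps15a and Rps20, whose annotated transcripts of 5130 and 3706 bases are long. Undoing the division raised their means from 9.03 to 11.39 and from 9.32 to 11.21, and their weight in the value was not tested.

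The highest levels belonged to genes of very short proteins. Rps27, a zinc-binding small subunit protein, ranged from 9.38 in cell 6 to 13.56 in cell 3 with a median of 12.14, and its mean was the second highest of the whole table. Rps29, also zinc-binding, ranged from 10.22 to 12.65 (median 12.10). Rpl41, the smallest ribosomal protein, ranged from 9.13 to 12.77 (median 11.79). Rps28, which lies where mRNA leaves the ribosome, ranged from 8.98 to 12.77 (median 12.04). These 4 genes each had their minimum in cell 6, and their ranges overlap throughout. Next by mean came Rps19 (11.03 ± 0.53, SD over 14 cells), Rpl37a (10.98 ± 0.87), Rpl38 (10.74 ± 1.17), Rplp2 (10.65 ± 0.73), Rpl32 (10.63 ± 1.65), Rps9 (10.54 ± 0.62) and Rps21 (10.52 ± 0.94). Neighbours in this order differed by less than the larger of their SDs.

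The lowest levels belonged mostly to large subunit genes. Rpl3, a protein that reaches the peptidyl transferase centre, ranged from 3.49 in cell 1 to 8.47 in cell 10 (median 7.34). Rpsa, of the small subunit head and also known as the laminin receptor precursor, ranged from 3.36 in cell 8 to 8.30 in cell 11 (median 7.47). Rpl29 had a mean of 7.20, Rpl5 of 7.25, Rpl10a and Rpl12 of 7.33 each, Rpl15 of 7.36 and Rpl8 of 7.57. Rpl21, Rps3a1, Rpl17 and Rpl7a, at 7.66 to 7.75, completed the 12 lowest. Across the 76 genes, the mean level had a Spearman correlation of -0.62 with transcript length, which was -0.09 once the division by length was undone, against -0.26 over the 9544 annotated rows on the deposited scale. The labels describe 3′ libraries, in which reads need not grow with transcript length. The part of the division by length in this correlation was not tested. Undoing the division, with annotated lengths, kept Rps27, Rps29, Rpl41, Rps28 and Rps19 within the first 7 ranks. It placed Rps15a and Rps20 first and second through annotated transcripts of 5130 and 3706 bases.

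The core genes varied little between cells. Their median SD over the 14 cells was 1.0, against 1.75 over all rows and 1.71 over the 394 other rows in the top 5% by mean. An SD under 1 was found for 39 of 76 core genes (51.3%), where 7.77% of the 1506 rows detected in all cells had one, as did 11.9% of the other top rows. Rps19, whose human gene is mutated most often in Diamond-Blackfan anaemia, was the steadiest, from 9.86 in cell 8 to 12.01 in cell 3. Also among the 10 steadiest were Rps9 (SD 0.62), Rps29 (0.63), Rpl37 (0.63), Rps25 (0.65), Rplp0 (0.68), Rplp2 (0.73), Rps7 (0.74) and Rpl7 (0.76). The most variable was Rpl8, with 2.84 in cell 8 and 4.40 in cell 2 beside 9.67 in cell 11 (SD 1.96). Rpl22 (1.72), Rpl32 (1.65), Rpl15 (1.54), Rpl12 (1.49), Rpl39 (1.49), Rpl7a (1.47), Rpl28 (1.40), Rpl36a (1.38) and Rpl3 (1.38) followed. All 10 of the most variable core genes belong to the large subunit. Single low cells set several of these SDs. Rpl32 was at 6.02 in cell 1 against a median of 11.20, Rpl39 at 4.82 in cell 1 against 9.49, and Rpl36a at 5.47 in cell 3 against 9.26.

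Functional groups of core genes kept the order of the whole set only in part. The acidic stalk, which recruits elongation factors, consists of Rplp0 on the stalk base protein Rpl12 with Rplp1 and Rplp2. Rplp2 ranged from 9.26 to 11.85 (median 10.79), Rplp1 from 7.16 to 10.67 (10.09), Rplp0 from 7.48 to 9.56 (8.51) and Rpl12 from 4.58 to 9.16 (7.67). Rplp1 was lowest in cell 14 whereas the other 3 were lowest in cell 8. Rpl5 and Rpl11 join the ribosome as a particle with 5S ribosomal RNA, and outside it they bind Mdm2 and so stabilize p53. Rpl5 was lowest in cell 14 (4.45) and cell 6 (5.21) and highest in cell 3 (8.83), around a median of 7.72, while Rpl11 ranged from 6.23 to 9.55 (median 8.0). Their joint mean was 5.72 in cell 6, 6.24 in cell 14, 6.80 in cells 8 and 12, and 9.19 in cell 3.

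Genes mutated in human Diamond-Blackfan anaemia covered most of the range of core levels. All 10 listed were detected in all cells, and the median of their means was 9.38 against 9.18 over all core genes. Besides Rps19, Rpl5 and Rpl11 they included Rps26 (median 10.10), Rps24 (mean 9.59), Rpl35a (9.44), Rpl26 (9.31), Rps10 (8.87) and Rps7 (8.63), by mean unless said otherwise. Rps7 was highest in cell 6, at 10.28, against a median of 8.55.

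**Figure D2:**
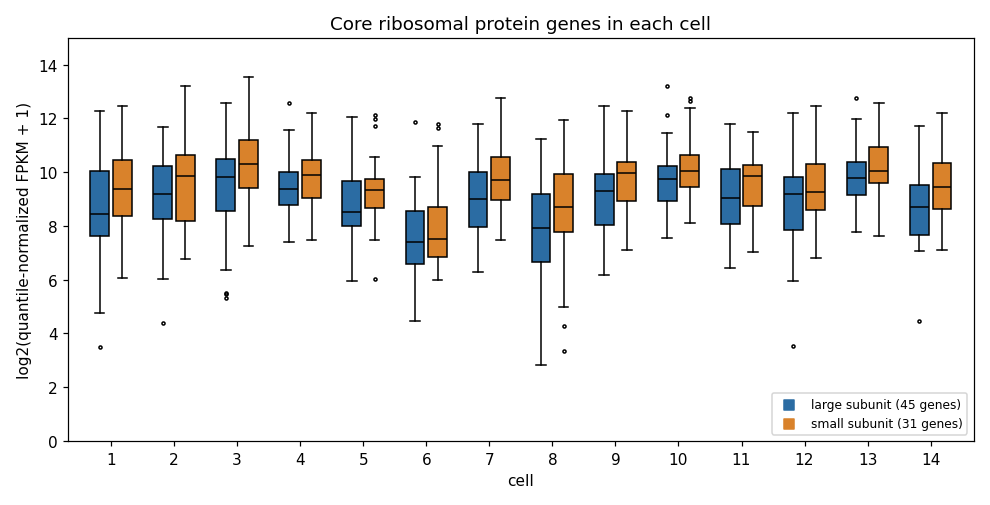
Core genes of the large (45) and small (31) subunit in each cell, log2(quantile-normalized FPKM + 1). Boxes span the quartiles with the median as a line, whiskers reach 1.5 times the box, and dots lie beyond. Cells 6 and 8 sit lowest, with core means of 7.72 and 8.11, and cells 3, 10 and 13 highest.

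Cells 6 and 8 had lower core means than the other 12. The mean over the 76 core genes was 7.72 in cell 6 and 8.11 in cell 8, and ranged from 8.91 in cell 1 to 9.97 in cell 13 among the others, with a median of 9.29 over all cells. Of the 76 genes, 35 had their lowest value in cell 6 and 19 in cell 8, whereas 25 were highest in cell 3 and 10 in cell 13. Such counts were not made over all rows, so nothing particular to the core genes is read from them. Core genes filled 5 of the 100 highest rows in cell 6, 9 in cell 8, and between 10 and 32 in the others.

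Other abundant genes were also mostly low in cell 6, but not in cell 8. Each gene in a cell was set against its median in the other 13 cells. In cell 6, 60 of 76 core genes lay more than 1 log2 unit below (78.9%), as did 51.1% of the 1506 rows detected in all cells and 71.1% of the other top rows. The median departure in cell 6 was -2.06 for core genes and -1.86 for the other top rows. In cell 8, 38 of 76 core genes lay more than 1 below, against 33.3% of the 1506 rows and 22.8% of the other top rows, of which 26.1% lay more than 1 above. The median departure in cell 8 was -1.02 for core genes and 0.15 for the other top rows. In cell 3, 24 core genes lay more than 1 above (31.6%, background 29.7%, other top rows 17.5%) and 9 more than 1 below (11.8%, background 32.1%, other top rows 35%). In cell 13, 21 lay more than 1 above (27.6%, background 26.9%, other top rows 20.8%) and 0 more than 1 below (background 27.3%, other top rows 20.8%).

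Single core genes departed differently in cells 6 and 8. Both cells were low for 29 core genes, cell 6 alone for 31, cell 8 alone for 9 and neither for 7. Of the 1506 rows detected in all cells, 236 were low in both, 534 in cell 6 alone, 266 in cell 8 alone and 470 in neither, and nothing particular to the core genes is read from their overlap. In cell 6 the deepest departures were those of Rpl7a (-3.49), Rps15a (-3.29), Rpl35 (-3.24), Rps16 (-3.15) and Rps28 (-3.08). More than 1 above the median of the others in cell 6 lay 6 core genes (7.89%, background 28.7%, other top rows 12.9%). They were Rpl15 (2.45), Rps7 (1.81), Rpl17 (1.53), Rps24 (1.51), Rps9 (1.24) and Rplp2 (1.12). In cell 8 the deep departures included Rpl8 (-5.13), Rpl15 (-4.26), Rpsa (-4.13) and Rpl31 (-3.58), and 0 core genes lay more than 1 above (background 24.9%). Rpl15 was thus at 9.82 in cell 6, its highest, and at 3.19 in cell 8, its lowest. The departures in the 2 cells had a Spearman correlation of -0.15 across the 76 genes, which share libraries and are not independent.

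**Figure D3:**
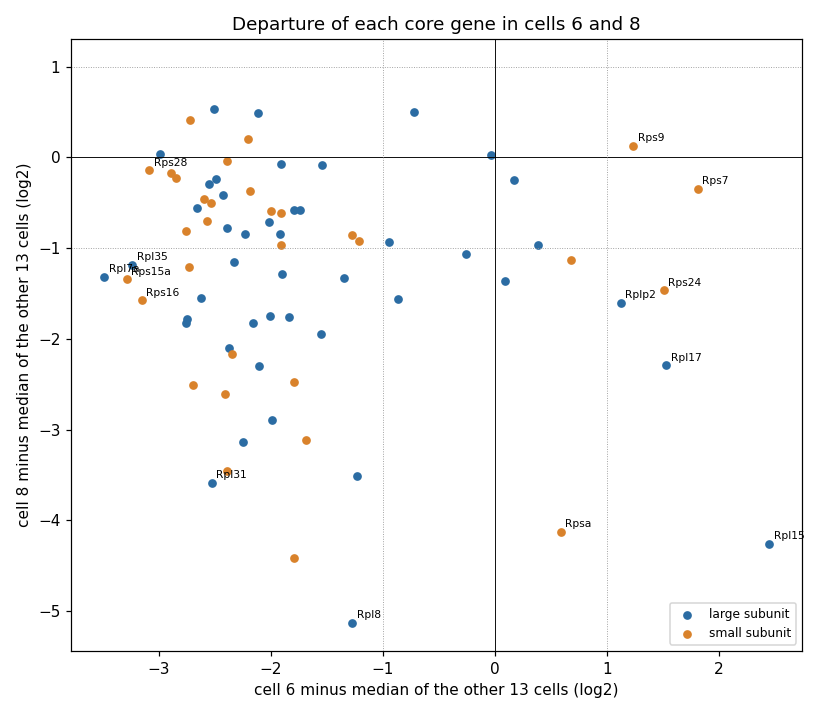
Each point is a core gene, with its departure in cell 6 on the x axis and in cell 8 on the y axis, both as log2 level minus the median of the other 13 cells. Dotted lines mark 1 unit. Most points lie left of and below 0, while Rpl15 lies at 2.45 in cell 6 and -4.26 in cell 8.

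Blood cell genes also differed between these cells, so their values are given beside the core means. Of the 14 neutrophil genes listed, 12 had a row and together made up 2.56% of the summed FPKM in cell 6, 1.26% in cell 8, and 0.0265% to 7.14% in the others, where cells 11 and 14 had 7.14% and 6.37%. Of 12 neutrophil genes, 12 were detected in cell 6 and 11 in cell 8, where Mpo was at 0. The 4 macrophage genes with a row of 8 listed made up 0.0556% in cell 6, 0.486% in cell 8 and at most 2.49% elsewhere, in cell 14. These were Lyz2, Cd14, Cd68 and Ctss, while Csf1r, Adgre1, C1qa and C1qb had no row. The list therefore does not separate macrophages from other myeloid cells. All 9 pan-leukocyte genes had a row, and made up 1.13% in cell 6 and 0.918% in cell 8, within the 0.00817% to 3.80% of the others. By mean log2 level, cells 6 and 8 lay above every cell but 11 and 14 on each blood cell list. The neutrophil means were 7.94 and 6.19, against at most 4.54 in the remaining cells. The macrophage means were 5.22 and 5.93, against at most 3.72. The pan-leukocyte means were 5.94 and 6.72, against at most 5.70. The 11 stromal genes made up 2.21% in cell 6, 4.33% in cell 8, and 0.141% (cell 14) to 9.11% (cell 13) in the others, and none of them was at 0 in any cell. Their mean log2 level was lowest in cell 14, at 4.88, where the blood cell lists were highest. Over the 14 cells, the core mean had a Spearman correlation of -0.71 with the macrophage list mean, -0.56 with the neutrophil and -0.55 with the pan-leukocyte list mean, and 0.15 with the stromal list mean. Without cells 6 and 8 these were -0.62, -0.38, -0.41 and 0.04. Cells 11 and 14, the highest in pan-leukocyte genes, had core means of 9.27 and 8.99. The part of blood cell RNA in the core levels was not tested.

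The core genes moved together across the cells, moderately. Over the 2850 pairs of core genes the median Spearman correlation was 0.32, and 84.6% of pairs were positive, against 0.01 and 50.7% over all pairs of the 1506 rows detected in all cells. It was 0.05 over pairs of the other top rows. Without cells 6 and 8 the medians were 0.22, 0.01 and 0.01 in the same order. These correlations share library and normalization and are given as a description. Rps18, a small subunit head protein, followed the mean of the other core genes most closely (0.88), then Rps23 of the decoding centre (0.86) and Rps12 (0.86). Rps9 (-0.27), Rps7 (-0.10), Rpl7 (0.01) and Rpl15 (0.08) did not follow it. Among the 1420 rows outside the 90, the 8 that followed the core mean most closely were Ube2e1 (0.79), Socs2 (0.78), Vps25 (0.77), Ehmt2 (0.77), Rnasek (0.76), Mydgf (0.73), Fkbp9 (0.72) and Npm1 (0.71). The median over those rows was 0.03.

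Of the 7 processed copies, 6 followed their parents across the 14 cells, with Spearman correlations of 0.63 (Rpl6l) to 0.99 (Rps3a2). Processed copies arise from reverse-transcribed mRNA, lack its introns and start out with the sequence of the parent. Rps3a2 (chromosome 14, 88123017 to 88123808, minus strand, annotated as a processed pseudogene) matched 99.1% of the coding bases of Rps3a1. Its difference from Rps3a1 stayed between -1.39 and -0.64 in the 14 cells, with an SD of 0.20. Rps3a3 (chromosome 13, 108670603 to 108671397, plus strand, processed pseudogene) matched 98.9% and was higher than Rps3a1 in 13 cells, by 0.62 in the median (SD 0.30). Rpl37rt (chromosome 5, 115102923 to 115110268, minus strand, transcribed processed pseudogene) matched 99.7% of Rpl37 and was higher in 14 of 14 cells, by 0.91 (SD 0.22). Rps12l1 (chromosome 7, 56014016 to 56014414, plus strand, processed pseudogene) matched all 399 coding bases of Rps12 and lay 3.08 below it (SD 0.33). Rps27rt (chromosome 9, 114982366 to 114982739, minus strand, annotated as protein-coding) matched all 255 coding bases of Rps27 and lay 1.45 below it (SD 0.42). Rpl6l (chromosome 10, 111125851 to 111126721, plus strand, processed pseudogene) matched 96.5% of Rpl6 and lay 3.53 below it (SD 0.56). For the 2850 pairs of core genes the SD of the difference had a median of 1.18 and a minimum of 0.30, for Rps23 and Rpl41. The levels of Rps3a1, Rps12, Rps27, Rpl37 and Rpl6 and of these copies are therefore uncertain, since the labels do not say how reads that fit several places were counted.

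The last 90 coding bases, next to the 3′ end that the kit reads, are shown 5′ to 3′ on the coding strand for copies and paralogues beside their parents, with the bases that differ within each pair in capitals. The sequences are GENCODE M21 transcripts (GRCm38). Rps27rt and Rps27 were identical over this stretch, as were Rps12l1 and Rps12.
Rps3a3: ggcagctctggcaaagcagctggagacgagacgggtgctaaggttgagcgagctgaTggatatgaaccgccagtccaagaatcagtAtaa
Rps3a1: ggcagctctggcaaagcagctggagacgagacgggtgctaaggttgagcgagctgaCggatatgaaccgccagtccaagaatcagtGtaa
Rpl37rt: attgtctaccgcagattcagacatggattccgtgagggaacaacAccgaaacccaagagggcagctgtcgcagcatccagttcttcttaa
Rpl37: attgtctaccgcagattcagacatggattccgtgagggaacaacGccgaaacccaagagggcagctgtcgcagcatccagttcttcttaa
Rps27l: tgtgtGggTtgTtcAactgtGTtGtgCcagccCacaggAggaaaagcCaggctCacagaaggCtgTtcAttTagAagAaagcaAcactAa
Rps27: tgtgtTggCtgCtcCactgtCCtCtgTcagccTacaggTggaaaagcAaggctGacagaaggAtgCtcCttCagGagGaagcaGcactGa
Rpl39l: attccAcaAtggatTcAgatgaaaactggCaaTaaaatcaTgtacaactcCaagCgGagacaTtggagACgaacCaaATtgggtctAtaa
Rpl39: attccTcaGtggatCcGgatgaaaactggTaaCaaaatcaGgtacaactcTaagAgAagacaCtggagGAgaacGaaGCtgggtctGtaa
The capitals number 2 for Rps3a3, 1 for Rpl37rt, 20 for Rps27l and 17 for Rpl39l.

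The diverged paralogues had patterns of their own. Rpl22l1 (70.5% of the coding bases of Rpl22) was detected in all cells and ranged from 4.35 to 9.89, with a median of 7.89, beside 3.54 to 11.11 and a median of 8.30 for Rpl22. In mouse, loss of Rpl22, an RNA-binding large subunit protein, is known to raise Rpl22l1. Cell 12 had Rpl22l1 at its highest, 9.89, and Rpl22 at its lowest, 3.54. Cell 10 had Rpl22l1 as high, at 9.89, but Rpl22 at 8.14. Cell 3 had Rpl22l1 at its lowest, 4.35, and Rpl22 at its highest, 11.11. In cells 4, 7 and 13 both lay close together, with Rpl22l1 at 8.79, 8.22 and 9.73 and Rpl22 at 8.99, 8.21 and 9.45. Over the 14 cells the Spearman correlation was -0.29, so the opposition in cells 3 and 12, chosen after the values were seen, was not a general rule.

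Rps27l, a p53 target, lay 1.95 below its parent in the median. It ranged from 5.75 in cell 2 to 11.40 in cell 1 (median 10.19), below it in 14 of 14 cells and with a Spearman correlation of -0.08. Rpl36al, an autosomal relative of the X-linked Rpl36a, was detected in all cells, from 5.09 in cell 11 to 10.62 in cell 5 (median 9.35), and differed from Rpl36a by 0.02 in the median, with an SD of 1.59. It matched 87.9% of the coding bases, and 4 of the last 90 differed. Its Spearman correlation with Rpl36a was 0.45. The labels do not say how reads that fit both genes were counted. Rpl7l1, a nucleolar factor of large subunit assembly, had a median of 3.54 and reached 6.44 in cell 7.

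The paralogues known for tissue-restricted use were near 0 in most cells. Rpl39l, known from the testis, was at 9.78 in cell 7, where Rpl39 was at 9.53, and between 0 and 2.46 in the other 13 cells, detected in 5 cells in all. Rpl3l, known from striated muscle, was at 4.03 in cell 14 and at 0 in the other 13. The copy Rps4l matched 79.8% of its X-linked parent Rps4x. It was detected in 8 cells, highest in cell 4 (7.13), then in cell 5 (5.39) and cell 10 (4.84), and reached at most 3.85 elsewhere. Rps19bp1 was detected in 3 cells, namely cell 4 (6.24), cell 5 (6.02) and cell 12 (1.12). Cells 4 and 5 were thus the highest for both of these rows.

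**Figure D4:**
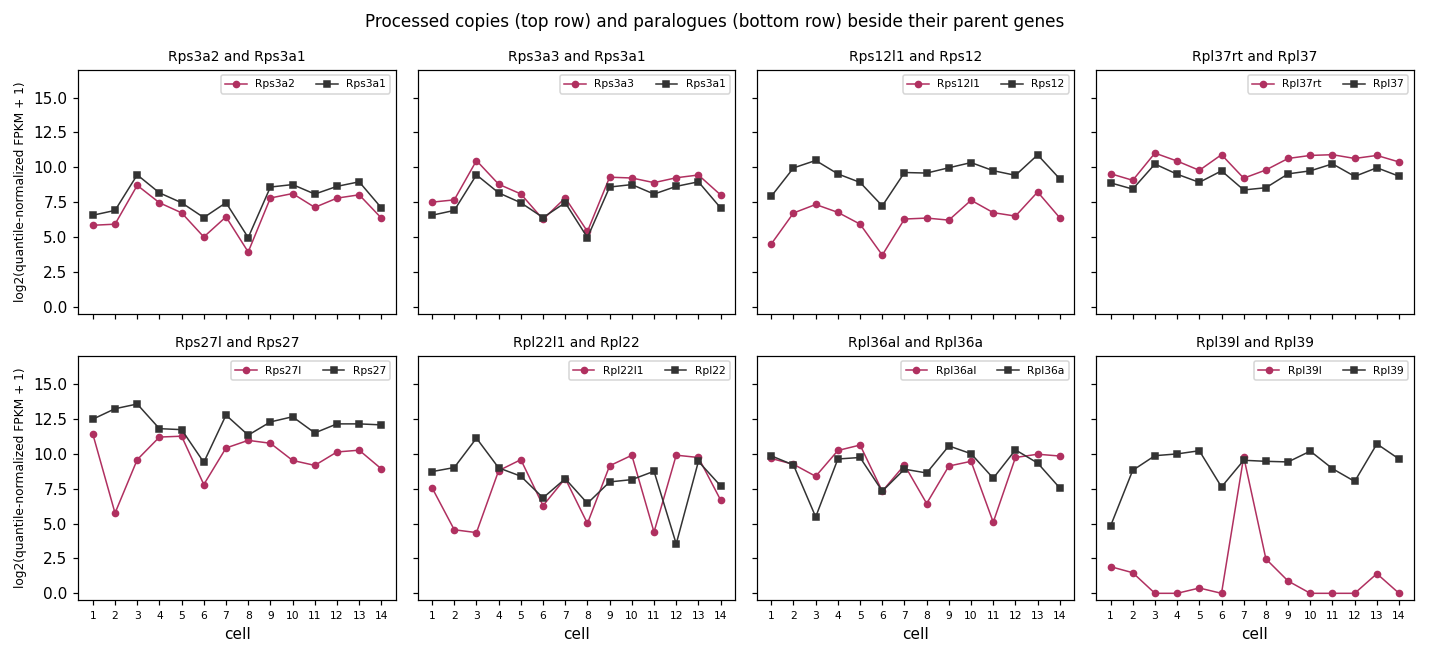
Processed copies (top) and paralogues (bottom), in red, beside their parent genes, in black, as log2(quantile-normalized FPKM + 1) in each of the 14 cells. The 4 copies run nearly parallel to their parents. Rpl22l1 and Rpl36al cross theirs, Rps27l lies below Rps27 in 14 of 14 cells, and Rpl39l is far below Rpl39 except in cell 7, at 9.78.

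Subunits that the naming rule misses were at similar levels. Fau, which encodes S30 fused to a ubiquitin-like protein, had a median of 9.45 (range 8.54 to 11.14). Rps27a, a ubiquitin fusion inside the rule, had 10.19 (7.48 to 10.59). Gnb2l1, the older symbol of Rack1, a signalling scaffold on the small subunit, had 10.27 (7.88 to 11.23), lowest in cell 6.

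The elongation factor genes were lower on average than the core genes. The core mean minus the mean of 7 genes listed as elongation factors had a median of 3.15 over the cells (SD 0.63). It ranged from 2.17 in cell 5 to 4.47 in cell 12, and was positive in 14 of 14 cells. It was 2.01 with the length division undone. Eef1a1, which delivers aminoacyl-tRNA, had a median of 9.95 and a lowest value of 9.11, in cell 6. Its exchange factor subunits Eef1b2, Eef1d and Eef1g had medians of 8.51, 6.24 and 5.81, with Eef1b2 above the core mean in cells 1, 8 and 10, and Eef2, which drives translocation, 5.05. Eif5a had 6.87. Eef1e1, listed by its symbol but not an elongation factor itself, was detected in 6 cells and had the lowest mean of the 7 genes (1.36). Its inclusion lowers the list mean and so widens the difference from the core genes.

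Other genes with TOP mRNAs followed the core mean. Of 23 symbols listed, 22 had a row, of which 18 were detected in every cell and 21 in 7 or more. Over all rows these shares were 15.8% and 51.7%. High means were those of Tpt1 (10.85), Gnb2l1 (10.02) and Eef1a1 (9.90), and the lowest those of Eif4b (1.58), Hnrnpa1 (3.05), Eif3f (3.28) and Eif3e (3.89). The mean of this list had a Spearman correlation of 0.85 with the core mean over the 14 cells and 0.81 without cells 6 and 8. Leaving out the genes that encode ribosomal subunits, Fau and Gnb2l1 among them, gave 0.77, and leaving out the elongation factors too gave 0.45 over the 14 genes left. The correlation of the list was lower without genes of the translation machinery itself.

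Genes that build ribosomes lay mostly below the core genes. Of 37 listed, 35 had a row, and 9 of these were detected in every cell and 24 in 7 or more. Over all rows, 15.8% were detected in every cell and 51.7% in 7 or more. The median of the means in this list was 2.50, against 9.18 over the core genes. The median SD over cells in the list was 1.76, against 1.75 over all rows. Ncl and Npm1, abundant nucleolar proteins, had means of 7.94 and 7.27, Nop10 of 6.70 and Polr1d of 6.63, while Rpf2, Rrs1, Tsr1 and Pes1 had 0.37, 0.64, 0.69 and 0.70. The list mean had a Spearman correlation of 0.18 with the core mean. Mitochondrial ribosomal proteins, which serve the separate ribosome of the organelle, had 77 rows, 21 of them detected in every cell and 58 in 7 or more. The core mean minus their mean had a median of 5.71, from 4.10 in cell 4 to 6.75 in cell 3, and the correlation of both means was 0.21. The mitochondrial list was highest in cells 4 and 5, at 5.51 and 4.79.

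Regulators of ribosomal protein mRNAs were measured for 9 of 12 genes. Of these, 4 were detected in 7 or more cells, as were 51.7% of all rows. Eif4ebp1, a translational repressor that mTOR inactivates, had a mean of 6.55, Rheb, the activator of mTOR, 5.74, the transcription factor gene Myc 5.18 and the S6 kinase gene Rps6kb1 4.13. Eif4ebp2, Rptor, Mtor and Rps6ka3 had means of 0.46, 0.51, 0.85 and 1.13. The regulator list mean had a Spearman correlation of -0.10 with the core mean.

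**Figure D5:**
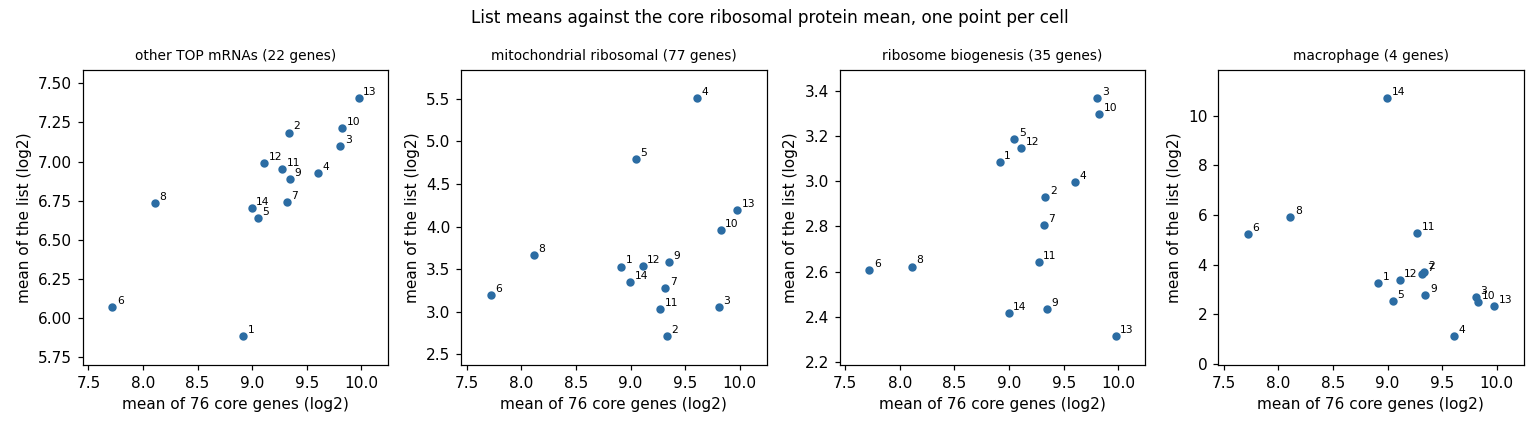
Mean log2 level of 4 gene lists (y axes, scales differ) against the mean of the 76 core genes (x axis), 1 numbered point per cell. The Spearman correlations are 0.85 for other TOP mRNAs, 0.21 for mitochondrial ribosomal proteins, 0.18 for ribosome biogenesis and -0.71 for the macrophage list (Lyz2, Cd14, Cd68 and Ctss).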

How the data were processed

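The labels describe SMART-Seq v4 3′ libraries of single cells, and TopHat2, Cufflinks and GRCm38 are named without versions in the submitters' processing notes. The table the authors deposited holds log2 values under a name that says FPKM. They were read as log2(FPKM + 1) after quantile normalization, because 14 values at the same rank differed by at most 0.0246, and no label or header records either step. No counts were given, so depth is unknown and no interval is printed. The labels do not say how its rows were selected. All 14 value columns matched a sample by title.

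Members were found by symbol, and all 90 matched GENCODE M21 by Ensembl ID. Transcript length is the median over APPRIS principal transcripts, or over protein-coding transcripts where none was marked. Copies were aligned to parent coding sequences with Biopython 1.88, and statistics used Python 3.11.15, pandas 2.3.3 and SciPy 1.17.1. The correlation and copy difference calculations were tested on simulated data. Named are the 12 highest and 12 lowest core genes, the 10 with the largest and the 10 with the smallest SD. Also named are all rows outside the core and the fixed lists (in long lists the 4 highest and 4 lowest). Among other rows detected in all cells, the 8 most like the core mean are named too. The members and lists were chosen with earlier results of these data known. Tunnel exit genes were listed too, with a median cell mean of 9.11. Some genes that these rules name are not reported here.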

Additional observations from a re-analysis of the deposited data

How the results depend on the processing

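No test was run, so the alternatives show how far values move. Of 220 recomputed values, 209 stayed within 1 SD (or within 1.5 times a count), 11 moved further and 0 changed sign. Counts, mean levels and SDs cannot be negative, so only the differences and the pair correlation could have changed sign. The SD was taken over the cells, but over genes for the median SD and over gene pairs for the pair correlation. Undoing the length division and a pseudocount of 10 could not change the pair correlation, since both keep the order of cells within a gene. Percentile ranks also left it at 0.32, because values at the same rank were nearly equal in all cells. With the length division undone, the core mean minus the elongation factor mean was 2.01, and with a pseudocount of 10 the core mean minus the mitochondrial ribosomal mean was 4.25. Without cells 6 and 8, an alternative chosen after the values were seen, and without cells 6, 8, 11 and 14, the lowest cell mean was 8.91. As percentile ranks within the cell, a scale of its own, the median, lowest and highest core means were 96.9, 92.9 and 98.3, the median SD was 2.26, large minus small subunit was -1.35, core minus elongation factors 14.1 and core minus mitochondrial ribosomal 34.8. Leaving out each cell in turn gave 86 and 87 detected members, a median core mean of 9.27 to 9.32, a lowest cell mean of 7.72 to 8.11, a highest of 9.82 to 9.97, a median SD of 0.87 to 1.03, large minus small of -0.61 to -0.59, core minus elongation factors of 3.09 to 3.21, core minus mitochondrial ribosomal of 5.65 to 5.76 and a median pair correlation of 0.28 to 0.36. No paired analysis was possible because the cells form 1 group. The unknown depth limits what low values show, and reads shared with processed copies limit the levels of single members.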
